A study of Mus musculus with 4 samples.

Results

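The nuclear genes that encode the subunits of respiratory complexes II to V were followed in single-nucleus RNA sequencing of neonatal mouse heart. Members were taken by gene symbol from the 22574 genes of the deposited count matrix, and 48 genes matched. They were the 4 subunits of succinate dehydrogenase (complex II), 9 genes of the cytochrome bc1 complex (complex III), cytochrome c (Cycs), 14 genes of cytochrome c oxidase (complex IV), 17 genes of ATP synthase (complex V), and 3 heart and skeletal muscle isoforms of complex IV, Cox6a2, Cox7a1 and Cox8b, which were kept apart. The other 45 are called the ubiquitous members. The name is a label for all members outside these 3, and it also covers the rare isoforms Cox4i2, Cox6b2 and Cox7b2. Over the 4 libraries 47 of the 48 had at least 50 unique molecular identifiers (UMIs, each marking a captured RNA molecule). The exception was Cox7b2, with 4 UMIs in the library labelled WT-Sham, 6 in WT-MI, 1 in KO-MI and 0 in KO-Sham, where a count of 0 allows up to 3 UMIs as a one-sided limit.

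The study compared control mice, Nrf1 fl/fl with the floxed alleles intact (WT), with Nrf1 fl/fl:aMHC-Cre mice (KO), in which Cre under the alpha myosin heavy chain (aMHC) promoter deletes the floxed gene in cardiomyocytes. At postnatal day 3 both genotypes had a ligature placed on the left anterior descending artery of the heart (MI) or a sham thoracotomy, and hearts were collected 1 day later. Tissue from below the ligation plane, or a like level in sham hearts, was pooled from 4 to 6 hearts of 1 genotype for each library. There was 1 library for each of WT-Sham, KO-Sham, WT-MI and KO-MI, so no difference has a replicate check and no test between conditions was possible. Intervals are 95% exact intervals of the counts, cover counting error only, and say nothing about the spread between hearts. The strain entry in the labels runs from C57BL/6 to C57BL/9 over the 4 samples, while the protocol gives C57BL/6 for all.

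Complex II oxidises succinate in the tricarboxylic acid cycle and passes the electrons to ubiquinone. Complex III hands them to cytochrome c, complex IV passes them to oxygen, and the proton gradient built on the way drives ATP synthesis at complex V. Complex II is encoded wholly in the nucleus, whereas complexes III, IV and V each also hold subunits made from the mitochondrial genome. In the mouse heart these genes are among the most highly expressed, and the heart shifts from glycolysis to oxidative metabolism after birth. The study uses the name Nrf1 for nuclear factor erythroid 2-like 1, gene symbol Nfe2l1. The gene with the symbol Nrf1 is nuclear respiratory factor 1, a different transcription factor that is known to bind promoters of respiratory genes.

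The 4 libraries held 8585 nuclei, from 1406 in WT-Sham to 3328 in KO-Sham, and between 4984625 and 9106522 UMIs. Levels are counts per 1000000 UMIs (CPM), that is, the UMIs of a gene summed over all nuclei of a library relative to the library's total. Nfe2l1, the targeted gene, stood at 62.2 CPM in WT-Sham, 50.5 in KO-Sham, 47.4 in WT-MI and 55.3 in KO-MI. It was therefore lower in KO than in WT in the sham pair, at a log2 ratio of -0.30 (-0.51 to -0.09), and higher in KO in the MI pair, at 0.22 (0.02 to 0.43), which goes against the label there, so groups are named as labelled libraries and each KO over WT direction is a direction between labels. UMIs were counted over introns as well as exons, and 3′ counts need not come from the deleted part of the gene. The library labelled KO-Sham stood apart, with a median of 2572 UMIs per nucleus against 3553.5 to 3959 in the others and a median mitochondrial share of 8.98% of UMIs against 5.29% to 6.58%. Of the cell barcodes, 9 occurred in more than 1 library. Markers of cardiomyocytes summed to between 34910 and 43979 CPM in each library, and none of the 8 was at 0. Genes listed as markers of other cells were present as well, at 877 to 1045 CPM for 7 fibroblast genes, 517 to 871 for 7 endothelial genes, 180 to 372 for 5 pericyte and smooth muscle genes, 92.4 to 539.8 for 9 myeloid genes and 2123 to 4519 for 5 red blood cell genes, and none of these 33 was at 0 in any library. Most of the pericyte and smooth muscle sum was Abcc9, with 339, 279, 152 and 154 CPM in WT-Sham, KO-Sham, WT-MI and KO-MI. Most of the endothelial sum was Fabp4, with 474, 758, 412 and 483 CPM. These 2 sums therefore rest mainly on 1 gene each.

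In CPM almost every member followed 1 order over the libraries. The 45 ubiquitous members had a summed level of 24469 CPM in WT-Sham and 38210 in KO-Sham, against 16490 in WT-MI and 19942 in KO-MI. Of the 47 members with at least 50 UMIs, 45 stood in the order WT-MI, KO-MI, WT-Sham and KO-Sham from lowest to highest, 46 were highest in KO-Sham and 45 were lowest in WT-MI. As UMIs per nucleus, which leave out the scaling to a total, 35 of the 47 stood in this order, 41 were highest in KO-Sham and 45 lowest in WT-MI. In CPM the exceptions were Cox6b2, a testis-enriched isoform that was lowest in KO-MI, and Cox4i2, the lung and hypoxia-related isoform of subunit 4, which was highest in KO-MI. Both were rare, with 225 and 58 UMIs over the 4 libraries. Over the 45 members with at least 1000 UMIs, the interval of a CPM reached a median of 2.28% to 3.79% of the value to either side and at most 7.89%, so for most members the libraries differed by more than counting error.

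**Figure D1:**
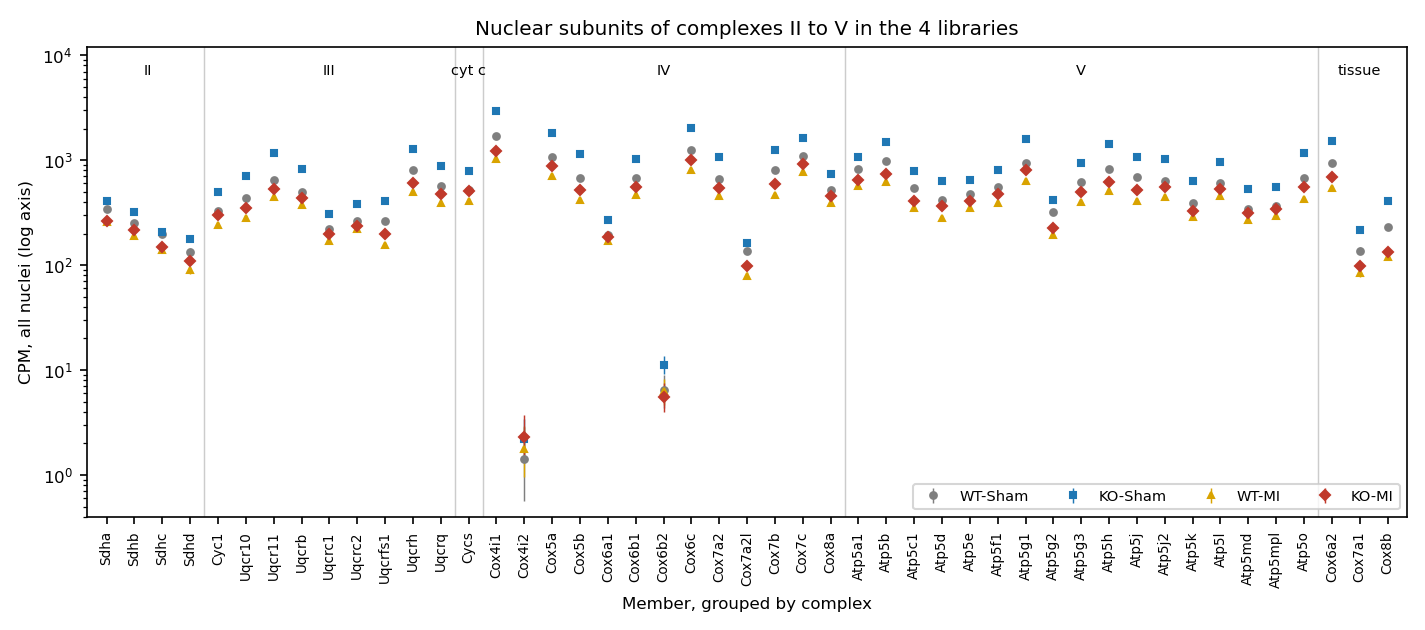
CPM of each member in the 4 libraries (log axis), with members grouped by complex and "tissue" marking the muscle isoforms. Points are summed UMIs of 1 library and bars are 95% exact Poisson intervals. Cox7b2, with 11 UMIs in all, is left out. KO-Sham is the highest point for 46 members and WT-MI the lowest for 45.

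The promoters of the members were searched for motifs of factors known to act on respiratory genes, and no test was run on the shares. RefSeq promoters of GRCm38.p6, from 250 bases before to 50 after the start, were at hand for 37 of the 48 members and 27025 genes in all. The core motif of nuclear respiratory factor 1, which can be read in the longer capitals of Cox6a1 and Sdhd below, occurred on either strand in 10 of the 37 (27.0%) against 5.19% of all promoters, and CCGGAAG, the core of the ETS factor GABPA, in 13 (35.1%) against 9.93%. AAGGTCA, read by the estrogen-related receptors, was in 5 (13.5%) against 5.38%, and AAGATGG, read by YY1, in 4 (10.8%) against 7.28%. TGACNNNGC, the core of the antioxidant response element that factors of the Nfe2 family bind, was in 2 (5.41%), Cox5b and Atp5o, against 14% of all promoters. A match describes letters in this window and is not evidence of binding. The 200 bases before the start are shown for Cox8b (chr7:140900447-140900646, minus strand) and its ubiquitous partner Cox8a (chr19:7217617-7217816, minus strand), the member with the lowest MI over Sham ratios and its counterpart, for Cox6a1 (chr5:115348959-115349158, minus strand), among the members least lowered after MI, for Uqcr11 (chr10:80406822-80407021, minus strand), the member with the highest KO-Sham over WT-Sham ratio, and for Sdhd (chr9:50603850-50604049, minus strand), a member of complex II. All are in GRCm38.p6, read 5′ to 3′ towards the gene, with matches to these motifs in capitals.
Cox8b: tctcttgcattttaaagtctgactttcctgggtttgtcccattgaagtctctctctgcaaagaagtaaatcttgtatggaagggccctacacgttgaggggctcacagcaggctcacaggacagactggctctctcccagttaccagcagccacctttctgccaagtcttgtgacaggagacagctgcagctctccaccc
Cox8a: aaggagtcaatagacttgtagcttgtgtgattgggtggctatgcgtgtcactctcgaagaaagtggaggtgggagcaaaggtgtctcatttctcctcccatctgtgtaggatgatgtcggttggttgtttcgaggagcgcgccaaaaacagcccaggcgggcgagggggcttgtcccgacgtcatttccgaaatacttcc
Cox6a1: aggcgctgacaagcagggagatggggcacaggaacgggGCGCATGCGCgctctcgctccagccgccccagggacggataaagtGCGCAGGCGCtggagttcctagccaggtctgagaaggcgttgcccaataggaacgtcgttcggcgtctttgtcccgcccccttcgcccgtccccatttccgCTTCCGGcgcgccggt
Uqcr11: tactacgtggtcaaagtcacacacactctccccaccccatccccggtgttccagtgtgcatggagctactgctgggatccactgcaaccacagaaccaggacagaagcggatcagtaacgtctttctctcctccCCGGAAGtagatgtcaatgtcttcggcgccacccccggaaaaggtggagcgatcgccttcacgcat
Sdhd: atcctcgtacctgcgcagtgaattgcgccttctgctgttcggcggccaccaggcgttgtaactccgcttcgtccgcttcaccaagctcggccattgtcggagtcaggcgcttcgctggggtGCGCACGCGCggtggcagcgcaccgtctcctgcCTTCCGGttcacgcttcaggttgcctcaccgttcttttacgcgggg

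The stretch of Cox8b held none of the motifs, whereas that of Cox6a1 held the nuclear respiratory factor 1 core at 162 and 117 bases before the start and the GABPA core at 16 bases before it. Uqcr11 held the GABPA core and Sdhd held both. Cox8a had GABPA cores only across and after the start, outside the printed bases. No test was run between members with and without the nuclear respiratory factor 1 core. The median log2 ratio of the 10 members with it was 0.22 for KO-MI over WT-MI, 0.51 for KO-Sham over WT-Sham, -0.61 for WT-MI over WT-Sham and -0.89 for KO-MI over KO-Sham. For the 26 counted members without it, the medians were 0.28, 0.65, -0.55 and -0.98.

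The comparison of genotypes after MI asked how the deletion altered the infarcted heart. From WT-MI, with 16490 CPM, to the library labelled KO-MI, with 19942 CPM, the ubiquitous members were 1.21-fold higher, a log2 ratio of 0.27 (interval 0.26 to 0.29), against a median of 0.03 over 11700 genes. Of the 46 members with at least 50 UMIs in the pair, 45 were higher in KO-MI, but none passed 1.5-fold in either direction, where 1.89% of all genes were past 1.5-fold higher and 1.73% lower. The shift was small and spread over the members. The highest ratios were those of Atp5o, the peripheral stalk subunit OSCP of ATP synthase, at 0.38 (0.31 to 0.45), and Atp5d, a central stalk subunit, at 0.36 (0.28 to 0.44). The lowest were Cox6b2 at -0.17 (-0.81 to 0.45) and Sdha, the flavoprotein of complex II, at 0.05 (-0.04 to 0.14), and both intervals held 0. Nfe2l1 itself was higher in KO-MI, so this direction rests on the label. Red blood cell genes, at 4519 CPM in WT-MI against 2123 in the KO library, and myeloid genes, at 539.8 against 273, were lower in the library where the members were higher, and their part in the result was not tested.

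In the sham pair the members were further apart. The ubiquitous members stood at 38210 CPM in KO-Sham and 24469 in WT-Sham, a log2 ratio of 0.64 (0.63 to 0.65) or 1.56-fold, against a median of -0.09 over 11478 genes. All 46 counted members were higher in KO-Sham and 30 of them by more than 1.5-fold, where 3.96% of all genes were. Uqcr11, a small subunit of complex III, had the highest ratio, with 654 CPM in WT-Sham and 1160.0 in KO-Sham, a log2 ratio of 0.83 (0.77 to 0.88). Cox8b followed at 0.83 (0.73 to 0.92). Sdhc, a membrane anchor of complex II, had the lowest, with 196 and 205 CPM and a log2 ratio of 0.06 (-0.05 to 0.18), and Sdha was next at 0.25 (0.16 to 0.33). This comparison rests on the library labelled KO-Sham, whose nuclei were shallower. Counted as UMIs per nucleus, the ubiquitous members had a mean of 104.6 in KO-Sham and 86.7 in WT-Sham, a log2 ratio of 0.27 where the median of all genes was -0.47, and none of the members was past 1.5-fold higher, where 0.531% of all genes were. Among nuclei of 2000 to 4000 UMIs 12 members were, against 4.23% of all genes.

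After MI the members were lower in both genotypes. In the control libraries the ubiquitous members went from 24469 CPM in WT-Sham to 16490 in WT-MI, which is -0.57 on the log2 scale (-0.58 to -0.56), against a median of -0.06 over 11362 genes. All 46 counted members were lower in WT-MI and 20 of them by more than 1.5-fold, where 13.7% of all genes were. Cox8b and Cox6a2, both muscle isoforms, had the lowest ratios at -0.93 (-1.06 to -0.81) and -0.79 (-0.85 to -0.73). Cox6b2 at -0.03 (-0.70 to 0.66) and Cox6a1 at -0.20 (-0.32 to -0.08) had the highest. In UMIs per nucleus the difference was -0.41 where the median of all genes was 0.10. The number past 1.5-fold lower was 6 when UMIs per nucleus were used, where 8.05% of all genes were, and 13 with a median-of-ratios size factor, where 10.7% were. Among nuclei of 2000 to 4000 UMIs it was 12 of 45, against 11.9% of all genes. Among nuclei with 4% to 8% mitochondrial UMIs it was 3 of 45, against 13% of all genes, a share of the members no higher than that of genes in general.

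In the KO libraries the ubiquitous members stood at 38210 CPM in KO-Sham and 19942 in KO-MI, a log2 ratio of -0.94 (-0.95 to -0.93), against a median of 0.04 over 11857 genes. All 46 counted members were lower in KO-MI and 43 of them by more than 1.5-fold, where 10.8% of all genes were. The lowest were Cox8b at -1.61 (-1.71 to -1.51) and Cox4i1, the ubiquitous subunit 4 of complex IV, at -1.25 (-1.28 to -1.21). Sdhc at -0.47 (-0.57 to -0.36) and Cox6a1 at -0.54 (-0.64 to -0.45) were the highest. As UMIs per nucleus the difference was -0.40 where the median of all genes was 0.59, and 6 members were past 1.5-fold lower, where 1.95% of all genes were. The summed myeloid markers moved with MI, from 125 CPM in WT-Sham and 92.4 in KO-Sham to 539.8 in WT-MI and 273 in KO-MI, and their part in these results was not tested. Most of the sum in WT-MI was S100a8 and S100a9, at 191 and 196 CPM against 19.7 and 28.1 in WT-Sham. Csf1r was the only gene of the list lower in WT-MI, at 7.16 CPM against 8.43, and the others rose by differing amounts. The 4 comparisons share libraries pairwise, so their values are not independent of each other.

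Complex II stood apart from the other complexes between the sham libraries. Sdha, which carries the flavin and the succinate site, had 342 CPM in WT-Sham, 406 in KO-Sham, 256 in WT-MI and 264 in KO-MI. Sdhb, the iron-sulfur subunit, had 252, 318, 189.7 and 217 CPM in the same order. Each was highest in KO-Sham and lowest in WT-MI. The 2 anchors were lower in CPM, with 196, 205, 138 and 148 for Sdhc and 135, 179, 89 and 109 for Sdhd. Summed, complex II had a log2 ratio of 0.13 (0.08 to 0.19) for KO-MI over WT-MI, 0.26 (0.21 to 0.31) for KO-Sham over WT-Sham, -0.46 (-0.52 to -0.40) for WT-MI over WT-Sham and -0.59 (-0.63 to -0.54) for KO-MI over KO-Sham. Its share of the UMIs of the ubiquitous members was 3.78% in WT-Sham, 2.90% in KO-Sham, 4.08% in WT-MI and 3.70% in KO-MI. In UMIs per nucleus the direction in the sham pair turned, with 3.28 in WT-Sham and 3.03 in KO-Sham, a log2 ratio of -0.11 (-0.17 to -0.06). Of the 4 genes none was past 1.5-fold between genotypes. Of all genes, 1.89% were past it higher and 1.73% lower in the MI pair, and 3.96% and 3.08% in the sham pair.

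Complex II genes are also long. Their spans in the GENCODE annotation ran from 7456 to 28027 bases with a median of 20715, against medians of 4762 for complex III, 6368.5 for complex IV and 7153 for complex V. Over the 45 counted members with an annotated span, Spearman's rho of span and log2 ratio was -0.49 for KO-Sham over WT-Sham, 0.39 for KO-MI over KO-Sham, -0.08 for KO-MI over WT-MI and 0.09 for WT-MI over WT-Sham. The 10 members of at least 10000 bases had a median log2 ratio of 0.49 in the sham pair, and the 35 shorter ones 0.65. In the MI pair the medians were 0.21 and 0.27. These are descriptions across genes that share 4 libraries, and the part of span in the result for complex II was not tested.

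Complex III followed the order of the libraries in each of its most abundant genes. Uqcrh, the hinge protein of complex III, had 803 CPM in WT-Sham, 1288 in KO-Sham, 499.7 in WT-MI and 606 in KO-MI. Uqcr11 had 654, 1160.0, 448 and 533. Summed, complex III had log2 ratios of 0.26 (0.24 to 0.29), 0.67 (0.65 to 0.70), -0.54 (-0.56 to -0.51) and -0.95 (-0.97 to -0.92) for KO-MI over WT-MI, KO-Sham over WT-Sham, WT-MI over WT-Sham and KO-MI over KO-Sham. Within it the 2 core proteins Uqcrc1 and Uqcrc2 lay below the sum in the sham pair, at 0.47 and 0.51. Cycs, the soluble carrier between complexes III and IV, had 518, 782, 407 and 513 CPM, with ratios of 0.33 (0.26 to 0.40), 0.59 (0.53 to 0.66), -0.35 (-0.42 to -0.27) and -0.61 (-0.66 to -0.55). After MI its level in KO-MI was within counting error of that in WT-Sham.

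In complex IV, Cox4i1 had 1697 CPM in WT-Sham, 2935 in KO-Sham, 1025 in WT-MI and 1236 in KO-MI. Cox6c, a small structural subunit, had 1254, 2008, 799 and 1003. KO-Sham was far above the other libraries for both, and the MI libraries were the lowest pair. The 14 genes together had log2 ratios of 0.28 (0.27 to 0.30), 0.68 (0.67 to 0.70), -0.61 (-0.63 to -0.59) and -1.01 (-1.03 to -0.996) in the same 4 comparisons. Cox7a2l, which takes part in joining complexes III and IV into supercomplexes, departed from the rest in the sham pair, with 136, 164, 79.2 and 98.6 CPM and a sham ratio of 0.27. Cox4i2 had only 7, 20, 14 and 17 UMIs, and all its intervals held 0.

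In complex V, Atp5g1, 1 of 3 genes for the membrane ring subunit c, had 933 CPM in WT-Sham, 1583 in KO-Sham, 637 in WT-MI and 814 in KO-MI. Atp5b, the catalytic beta subunit, had 991, 1488, 615 and 743. The 17 genes together had log2 ratios of 0.28 (0.26 to 0.30), 0.63 (0.61 to 0.64), -0.57 (-0.59 to -0.55) and -0.92 (-0.93 to -0.90). Atp5a1 and Atp5g2 had the lowest sham ratios in the complex, both 0.39, and Atp5o the highest, 0.80. Complexes III, IV and V kept nearly fixed shares of the ubiquitous members' UMIs in the 4 libraries, 16.5% to 16.9%, 34.9% to 36.9% and 41.3% to 41.9%. Of the 48 members 18 overlap another annotated gene, among them Cox4i1, Atp5b and Atp5j, whose span meets that of Gabpa. Without them the summed ratios of the ubiquitous members were -0.54 for WT-MI over WT-Sham and -0.90 for KO-MI over KO-Sham.

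**Figure D2:**
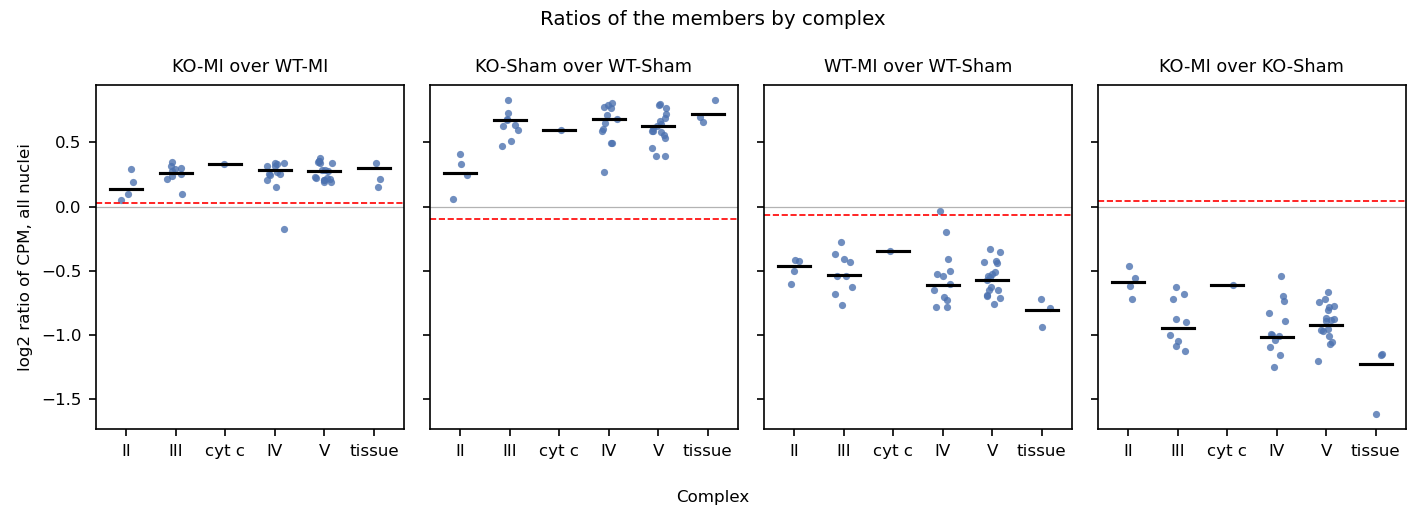
log2 ratio of CPM for each member with at least 50 UMIs in the pair (points), by complex, in the 4 comparisons of all nuclei. Black bars are the ratios of summed UMIs and the red dashed line is the median of all genes in that comparison. Complex II lies lowest in the KO-Sham over WT-Sham panel, at 0.26, and the bar of the muscle isoforms lies lowest in both MI over Sham panels, at -0.81 and -1.23.

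The muscle isoforms of complex IV replace ubiquitous partners in heart and skeletal muscle as these tissues mature. Cox6a2 had 945 CPM in WT-Sham, 1533 in KO-Sham, 547 in WT-MI and 692 in KO-MI, against 193, 272, 168 and 187 for Cox6a1. Cox8b had 229.7, 408, 120.3 and 133, against 523, 737, 393 and 454 for Cox8a. Cox7a1 had 138, 217, 84 and 97.4, against 660.2, 1081, 459.9 and 544 for Cox7a2. All 6 were lower in the MI library of each genotype, and the 3 muscle isoforms together had log2 ratios of 0.30 (0.25 to 0.35), 0.72 (0.68 to 0.76), -0.81 (-0.86 to -0.75) and -1.23 (-1.27 to -1.19).

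A share within an isoform pair needs no scaling to the total of a library. Cox6a2 made up 83.0% of the UMIs of Cox6a2 and Cox6a1 in WT-Sham (exact binomial interval 82.0 to 84.0) and 84.9% in KO-Sham (84.4 to 85.5), and 76.5% in WT-MI (75.4 to 77.6) and 78.7% in KO-MI (77.7 to 79.7). Cox8b made up 30.5% of its pair in WT-Sham (29.1 to 32.03) and 35.6% in KO-Sham (34.7 to 36.6), and 23.4% in WT-MI (22.1 to 24.8) and 22.7% in KO-MI (21.5 to 24.0). For both isoforms the MI libraries lay below the sham libraries by more than counting error, and for Cox8b the 2 MI libraries did not differ beyond it. Cox7a1 made up 17.3%, 16.7%, 15.4% and 15.2% in WT-Sham, KO-Sham, WT-MI and KO-MI, a range of the same direction but with neighbouring intervals that overlap. Cox4i2 was 0.187% or less of its pair with Cox4i1 in every library. The lower share of Cox8b after MI was seen in each population of nuclei, for example 32.8%, 35.2%, 22.6% and 22.2% in CM4 and 29.7%, 35.5%, 24.0% and 22.9% in CM1. Intervals of the controls overlapped in CM2, at 34.2% (23.7 to 46.0) in WT-Sham and 18.9% (11.9 to 27.6) in WT-MI. They also did in CM5, at 31.2% (25.58 to 37.2) and 22.2% (19.1 to 25.62). The genes of a pair differ in sequence and length, so a share is read only between libraries.

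**Figure D3:**
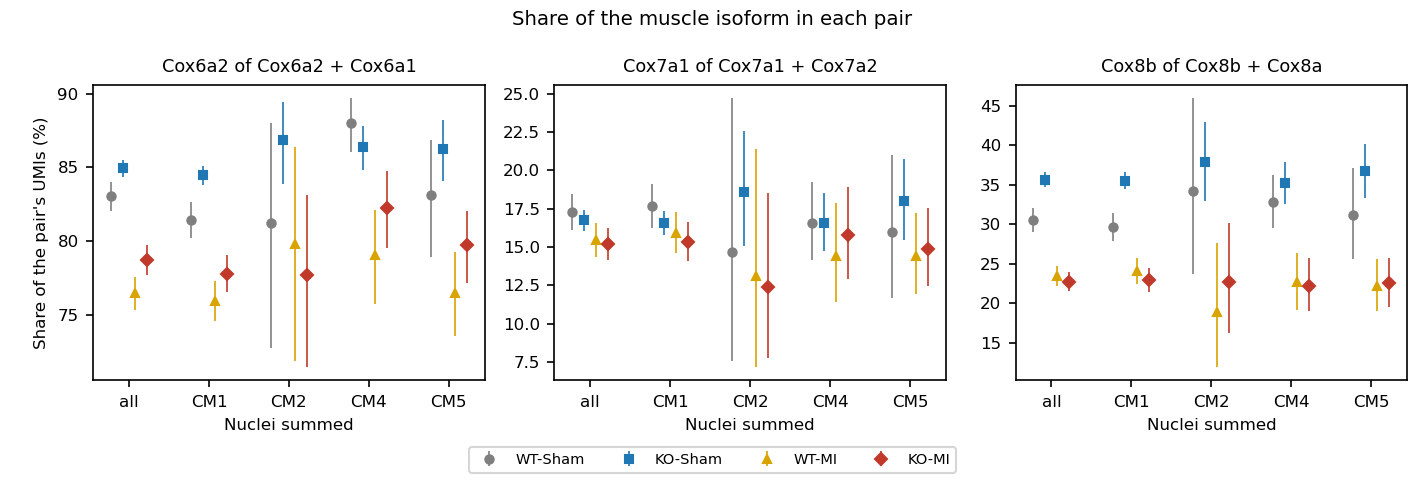
Share of the muscle isoform in the UMIs of each isoform pair (%), in all nuclei and in each population, for the 4 libraries. Points are summed UMIs, bars are 95% exact binomial intervals, and the vertical axes do not start at 0. In all nuclei, Cox6a2 and Cox8b lie lower in both MI libraries than in both sham libraries.

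The authors' annotation divides the nuclei into the cardiomyocyte populations CM1, CM2, CM4 and CM5. CM1 is the most abundant, CM4 is the immature population that the study follows as regenerative, and CM5 is described as induced by injury. The study merged CM3 with CM1 because the clusters were not clearly apart. No nucleus is labelled CM3 here, so CM1 stands for both. In CPM the members were highest in CM4 in every library. The ubiquitous members summed to 65637 CPM in CM4 of WT-Sham, 57943 of KO-Sham, 36513 of WT-MI and 53670 of KO-MI, from 192, 351, 192 and 118 nuclei. In CM1 they summed to 20709, 36610, 15845 and 18562 CPM, so CM4 was 3.17-fold, 1.58-fold, 2.30-fold and 2.89-fold above CM1. CM4 nuclei were shallower than CM1 nuclei, with median UMIs of 1715.5 to 2394 against 2632 to 4043.5, and had median mitochondrial shares of 9.47% to 14.6% against 5.05% to 8.78%. In UMIs per nucleus the folds were 1.73, 1.18, 1.23 and 2.07. For complex II these folds per nucleus were 1.14, 0.995, 0.752 and 1.31, so its genes were not higher in CM4 in KO-Sham and were lower in WT-MI. Cytosolic ribosomal protein genes, 82 in number, had CPM folds of 3.01, 1.72, 2.61 and 2.90, so the higher level in CM4 was not particular to the respiratory members. Nuclear long RNAs, chiefly Malat1, were lower in CM4, at 24434, 54324, 59986 and 39407 CPM against 99436, 91296, 124392 and 123135 in CM1. So were 8 long intron-rich genes such as Ttn, at 15460, 20165, 19850 and 13900 against 42792, 34349, 40143 and 36626. The part of these RNAs in the CPM folds was not tested. CM1 and CM5 kept the order of all nuclei for 39 of 46 and 44 of 45 members and CM2 for 27 of 45, but CM4 kept it for only 2 of 45. As UMIs per nucleus the order held for 23 of 46 in CM1, 36 of 45 in CM5, 15 of 45 in CM2 and 0 of 45 in CM4.

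In CM4 the direction in the sham pair was the opposite of that in the other populations. KO-Sham was lower than WT-Sham, at a log2 ratio of -0.18 (-0.20 to -0.16), and 43 of 45 counted members were lower, none by 1.5-fold, where 6.71% of all genes were. In CM4 nuclei with 4% to 8% mitochondrial UMIs 6 of 35 were past 1.5-fold lower, against 11.1% of all genes. That subset held only 9 nuclei of WT-Sham and 27 of KO-Sham. In CM4 nuclei of 2000 to 4000 UMIs, 53 of WT-Sham and 115 of KO-Sham, 3 of 45 were past it, against 8.11%, with a summed ratio of -0.29. In CM1, CM2 and CM5 the same ratio was 0.82, 0.69 and 0.67. After MI, CM4 of the library labelled KO-MI stood above CM4 of WT-MI, at 0.56 (0.52 to 0.59), against a median of -0.04 over 2512 genes. All 45 counted members were higher and 20 of them by more than 1.5-fold, where 9.67% of all genes were. The highest were Cox7a2l, for which 88 UMIs in KO-MI stood against 60 in WT-MI (log2 ratio 0.85, 0.36 to 1.34), and Atp5o, for which 586 stood against 408 (0.82, 0.63 to 1.002). The lowest were Sdhd at 0.14 (-0.32 to 0.59) and Uqcrc2 at 0.23 (-0.11 to 0.56). In UMIs per nucleus the summed ratio was 0.96, where the median of all genes was 0.37, with means of 156.3 in KO-MI and 80.1 in WT-MI, and 44 members were past 1.5-fold higher, where 35.3% of all genes were. The median of all genes in CPM depended on the minimum count. Over genes with at least 200 UMIs it was 0.19, and 17 of 41 members were past 1.5-fold higher, against 13.6% of all genes. Among CM4 nuclei with 4% to 8% mitochondrial UMIs the summed ratio was 0.58 and the median of all genes 0.29. There 23 of 41 members were past 1.5-fold higher, against 28% of all genes.

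Between surgeries, CM4 of the controls was lower after MI, at -0.85 (-0.87 to -0.82), and 40 of 45 counted members were past 1.5-fold lower, where 16.1% of all genes were. In CM4 of the KO libraries the ratio was -0.11 (-0.14 to -0.09), and 1 member, Cox8b at -0.65 (-0.94 to -0.37), was past 1.5-fold lower, where 16.9% of all genes were. The ratio was -0.02 (-0.09 to 0.04) in nuclei with 4% to 8% mitochondrial UMIs, only 30 of KO-MI and 27 of KO-Sham. It was -0.03 (-0.07 to 0.005) without the members that overlap another gene, and both intervals held 0. In UMIs per nucleus it turned to 0.37, where the median of all genes was 0.49, with 156.3 in KO-MI and 120.6 in KO-Sham. Cycs had 1520 CPM in CM4 of WT-Sham, 1180.0 in KO-Sham, 966 in WT-MI and 1458 in KO-MI, so it was lower after MI in the controls, at -0.65 (-0.84 to -0.47), and higher after MI in the KO libraries, at 0.30 (0.14 to 0.47).

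Other transcripts moved with these CM4 results. The nuclear long RNAs, chiefly Malat1, had log2 ratios in CM4 of -0.61 for KO-MI over WT-MI, 1.15 for KO-Sham over WT-Sham, 1.30 for WT-MI over WT-Sham and -0.46 for KO-MI over KO-Sham. Each sign except the last was opposite to that of the members. The 82 ribosomal protein genes had 0.31, -0.26, 0.01 and 0.57. The 5 red blood cell genes stood at 12805, 7833, 8411 and 3538 CPM in CM4 of WT-Sham, KO-Sham, WT-MI and KO-MI, and the 9 myeloid genes at 192, 123, 935 and 489. Fibroblast genes lay between 1765 and 2182 CPM and endothelial genes between 1538 and 1626. The part of each of these in the CM4 results was not tested.

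**Figure D4:**
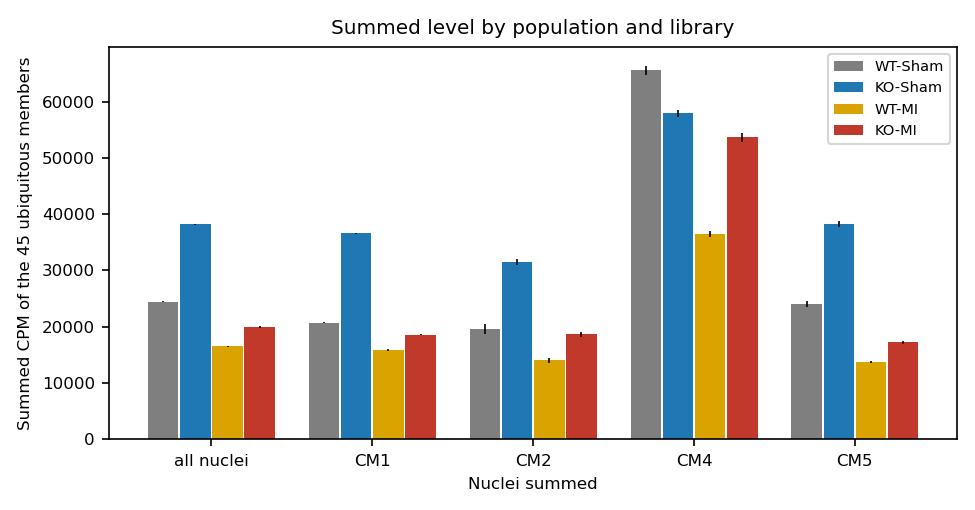
Summed CPM of the 45 ubiquitous members in all nuclei and in each population, for the 4 libraries, with 95% exact Poisson intervals. In CPM, CM4 is the highest population in every library, and in CM4 the WT-Sham library is the highest, where KO-Sham is in all others. As UMIs per nucleus, which are not plotted, KO-MI is highest in CM4, at 156.3 against 135.2 in WT-Sham.

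CPM of the members differed with the depth of a nucleus. From nuclei of fewer than 2000 UMIs to nuclei of at least 4000, the mean of all UMIs was 2.73-fold to 3.39-fold higher, but the UMIs of the ubiquitous members only 1.32-fold in WT-Sham, 1.61-fold in KO-Sham, 1.43-fold in WT-MI and 1.49-fold in KO-MI. Ribosomal protein genes behaved alike, at 1.26-fold to 1.73-fold, as did genes of the mitochondrial genome, at 1.54-fold to 1.99-fold. Long intron-rich cardiomyocyte genes such as Ttn and Ryr2 were 4.01-fold to 6.26-fold higher. In all nuclei the ribosomal protein genes had log2 ratios of 0.18, 0.39, 0.10 and -0.11 for KO-MI over WT-MI, KO-Sham over WT-Sham, WT-MI over WT-Sham and KO-MI over KO-Sham, so they lay above the respiratory members in both MI over Sham comparisons. The CPM of the members was therefore lower in the deepest bin, from 49538 to 20199 in WT-Sham, 50369 to 29667 in KO-Sham, 33904 to 14279 in WT-MI and 36029 to 17856 in KO-MI. The bins were not split by population. CM4, where this CPM was highest, had median UMIs of 1715.5, 1859, 1852.5 and 2394 in the same libraries, against 3749, 2632, 4042 and 4043.5 in CM1. The part of population in the fall with depth was not tested.

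Within bins of depth the directions of all 4 comparisons held, with different sizes. Among nuclei of at least 4000 UMIs the log2 ratios were 0.32 for KO-MI over WT-MI, 0.55 for KO-Sham over WT-Sham, -0.50 for WT-MI over WT-Sham and -0.73 for KO-MI over KO-Sham. Among nuclei of fewer than 2000 UMIs they were 0.09, 0.02, -0.55 and -0.48, and the sham ratio there had an interval from -0.00 to 0.05. These bins hold all populations together, and the sham ratio within CM4 was -0.18. Among nuclei with 4% to 8% mitochondrial UMIs the log2 ratios were 0.25, 0.69, -0.33 and -0.78, and among nuclei with 8% or more they were 0.41, 0.13, -0.81 and -0.53. Apart from transcripts of the mitochondrial genome, which are made outside the nucleus, RNA of the cytoplasm carried with a nucleus was not measured separately. Transcripts of red blood cell genes were also counted. Hbb-bs, for example, had 1852.5, 1315, 2300 and 1144 CPM in WT-Sham, KO-Sham, WT-MI and KO-MI. How far such RNA from outside the nucleus bears on the members was not tested. Whether a nucleus held less of the members' RNAs or the library captured fewer cannot be told apart.

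**Figure D5:**
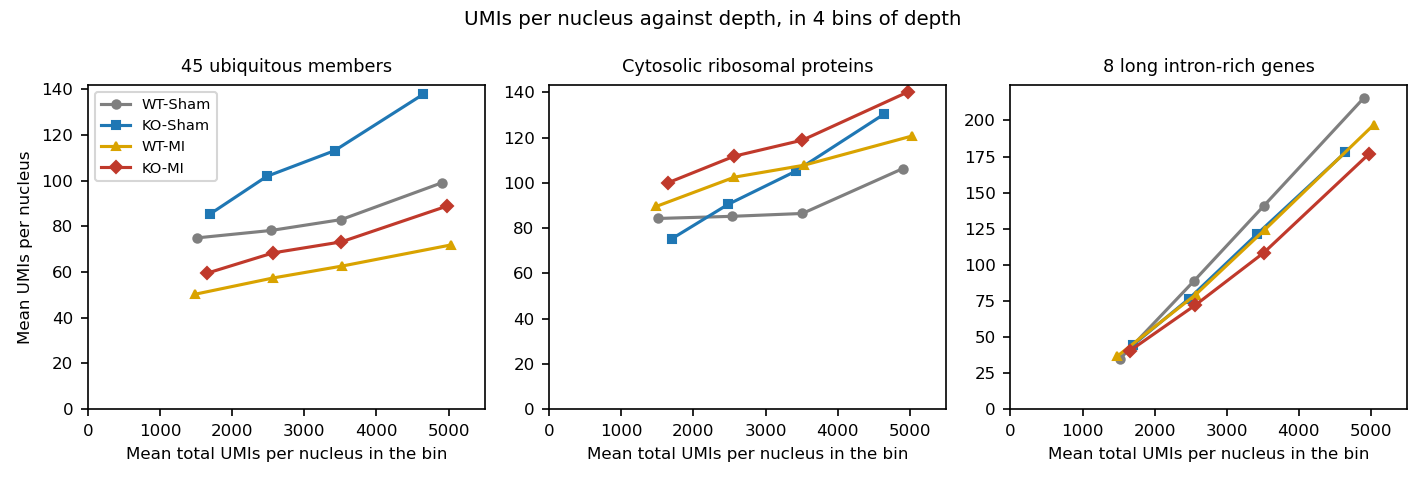
Mean UMIs per nucleus of the 45 ubiquitous members, 82 cytosolic ribosomal protein genes and 8 long intron-rich genes (panels) against the mean total UMIs per nucleus in 4 bins of depth, for the 4 libraries. The members are 1.32-fold to 1.61-fold higher in the deepest bin than in the shallowest, while all UMIs are 2.73-fold to 3.39-fold higher.

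The subunits of complexes III to V that come from the mitochondrial genome did not share the higher level in the library labelled KO-MI. The 6 genes summed to 55060 CPM in WT-Sham, 70789 in KO-Sham, 45329 in WT-MI and 43762 in KO-MI, with log2 ratios of -0.05 for KO-MI over WT-MI, 0.36 for KO-Sham over WT-Sham, -0.28 for WT-MI over WT-Sham and -0.69 for KO-MI over KO-Sham. In each comparison they lay closer to 0 than the nuclear subunits or on the other side of it. The most abundant, mt-Co3, had -0.07, 0.40, -0.16 and -0.63, and mt-Co2 had -0.06, 0.41, -0.29 and -0.76. The 7 mitochondrial genes of complex I, summed, had -0.06, 0.33, -0.17 and -0.56, among them mt-Nd4 with -0.05, 0.32, -0.09 and -0.46 and mt-Nd1 with -0.07, 0.36, -0.27 and -0.70. They did not move as one after MI in the controls. There mt-Nd3, mt-Nd4l and mt-Nd5 were higher in WT-MI than in WT-Sham, at 0.14, 0.27 and 0.15, while the other genes of complex I were lower. In CM4 the 6 genes had -0.14 for KO-MI over WT-MI, where the nuclear members had 0.56. Transcripts of the mitochondrial genome are made outside the nucleus, and how far their level reflects material carried with the nuclei was not tested.

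Assembly factors, which build the complexes without being part of them, were mixed. Of 39 genes named, 37 were in the matrix. The median log2 ratio over genes was 0.09, 0.27, -0.24 and -0.22 for KO-MI over WT-MI, KO-Sham over WT-Sham, WT-MI over WT-Sham and KO-MI over KO-Sham. Between genotypes 0 of 37 passed 1.5-fold in the MI pair, where 1.89% of all genes were past it higher and 1.73% lower, and 6 were past 1.5-fold higher in the sham pair, where 3.96% were. In WT-MI over WT-Sham 8 were past 1.5-fold lower, against 13.7% of all genes, and in KO-MI over KO-Sham 11 were, against 10.8%. The list also holds Ndufa4, a subunit now placed with complex IV, at 0.33, 0.70, -0.64 and -1.01, and Atpif1, the inhibitor of ATP synthase, at 0.32, 0.65, -0.61 and -0.94, which are not assembly factors and whose ratios lay near those of the subunits. These 2 genes held 34.0% to 50.7% of the list's UMIs in the 4 libraries. The counts and medians above include them, and both were past 1.5-fold in the sham pair and in each MI over Sham comparison. The summed ratios were 0.16, 0.43, -0.31 and -0.58 with them and 0.07, 0.21, -0.11 and -0.25 without them. Cox17, a copper chaperone of complex IV, had 0.09, 0.52, -0.24 and -0.67. Of the assembly factors of complex III with the most UMIs, Ttc19 had 0.03, -0.13, -0.09 and 0.06 and Uqcc1 had -0.14, -0.26, -0.17 and -0.05. For complex V, Atpaf1 had 0.03, -0.03, -0.01 and 0.05. For complex II, Sdhaf2 had -0.07, -0.17, -0.04 and 0.06 and Sdhaf4 had 0.31, 0.60, -0.81 and -1.10.

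Summed over the list, the regulators of respiratory genes did not follow the subunits, although single genes such as Ppargc1a were lower after MI as the subunits were. The list also holds Nfe2l1, the targeted gene. The 16 genes together had log2 ratios of -0.08, -0.17, -0.03 and 0.05, and none was past 1.5-fold between genotypes in either direction. Of all genes, 1.89% were past it higher and 1.73% lower in the MI pair, and 3.96% and 3.08% in the sham pair. Ppargc1a, the coactivator PGC-1 alpha, had 589 CPM in WT-Sham, 552 in KO-Sham, 425 in WT-MI and 417 in KO-MI, so it was lower in both MI libraries and alike between genotypes. Esrra had 150.1, 141, 152 and 144, and Esrrg, the regulator with the most UMIs, had 1280.1, 1133, 1293 and 1186. Ppargc1b, the related coactivator, had 479.9, 415, 602 and 565. Nrf1, the nuclear respiratory factor 1 gene, had 80.2, 83.9, 89.2 and 90.8. Pprc1, which was picked out after its values were seen, was the regulator past 1.5-fold higher after MI in both genotypes, with 11.4, 11.9, 30.0 and 33.4 CPM, where 10.2% of all genes were past 1.5-fold higher in the controls and 11.7% in the KO libraries. The other regulators past 1.5-fold were Gabpa, lower in WT-MI over WT-Sham at -0.71, and Esrrb, higher in KO-MI over KO-Sham at 0.61.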

How the data were processed

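Single-nucleus RNA was measured in 4 libraries, 1 for each genotype and surgery. Per the study's methods, the authors aligned reads with Cell Ranger (version not given in the sources used here) to a pre-mRNA version of mm10/GRCm38, which counts introns, removed doublets with Scrublet, kept nuclei with 200 to 2500 detected genes and cardiomyocyte clusters, and annotated them in Seurat 3. Labels and methods name different versions of the 10x 3′ kit. The deposited matrix holds raw UMI counts, and its column sums equalled the deposited total of UMIs in 100% of nuclei. The deposited metadata give the population of each nucleus and its percent of mitochondrial UMIs, and 12 other metadata columns were not used.

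UMI counts were summed per library and population and scaled to 1000000 UMIs (CPM). CPM intervals are exact Poisson, shares Clopper-Pearson, and log2 ratios of 2 sums exact conditional binomial, all at 95%. Ratios past 1.5-fold were counted where both sums together held at least 50 UMIs, and no p-value was computed because each group has 1 library. Reads shared with paralogues such as Atp5g1, Atp5g2 and Atp5g3, or with processed pseudogenes, were not separated here. The members and the gene lists were chosen with earlier results of these data known. Named were the 2 members of each complex with most UMIs, the muscle isoforms, their partners and Cox4i1 and Cox4i2, in each comparison the 2 highest and 2 lowest ratios, of each other list of the pathway the 2 genes with most UMIs, and the regulators Ppargc1a, Esrra, Esrrg, Nrf1 and Nfe2l1. Other genes named inside a complex (Uqcrc1, Atp5a1, Atp5g2, Cox5b and Atp5j) were picked out after their values were seen.

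Gene spans came from the reference annotation of GRCm38 and promoters from RefSeq, GRCm38.p6. Alternatives were TMM (edgeR 4.0.16, R 4.3.3) and median-of-ratios size factors, totals without mitochondrial UMIs, nuclei thinned to 1000 UMIs, nuclei with 4% to 8% mitochondrial UMIs, mean CPM per nucleus, other UMI minimums, sums without the 3 largest members, UMIs per nucleus, nuclei of 2000 to 4000 UMIs and sums without overlapping members, the last 3 added after the data were seen, as were assembly factor sums without Ndufa4 and Atpif1. Python 3.11.15, numpy 2.4.6, scipy 1.17.1, pandas 2.3.3 and matplotlib 3.10.9 were used, and the interval code was tested on simulated data.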

Additional observations from a re-analysis of the deposited data

Results flagged for a closer look

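In CM4 the KO over WT ratio had opposite signs after MI and after sham surgery, and this difference was not tested, since each group is 1 library. The log2 ratio of the ubiquitous members was 0.56 for KO-MI over WT-MI and -0.18 for KO-Sham over WT-Sham. Complex II had 0.46 and -0.30, complex III 0.55 and -0.17, cytochrome c 0.59 and -0.36, complex IV 0.52 and -0.11, complex V 0.59 and -0.23, and the muscle isoforms 0.70 and -0.20. Cytochrome c also had opposite signs between surgeries in CM4, at -0.65 for WT-MI over WT-Sham and 0.30 for KO-MI over KO-Sham, and this too was not tested. Nfe2l1 goes against the label in the MI pair.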

How the results depend on the processing

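Every summed ratio of the ubiquitous members in all nuclei kept its sign under every alternative run. In the order KO-MI over WT-MI, KO-Sham over WT-Sham, WT-MI over WT-Sham, KO-MI over KO-Sham, and KO-MI over WT-MI in CM4, the log2 ratios were 0.25, 0.73, -0.51, -0.99 and 0.62 with TMM, 0.23, 0.73, -0.50, -0.99 and 0.62 with the size factor, 0.23, 0.55, -0.60, -0.92 and 0.42 with thinned nuclei, and 0.23, 0.55, -0.61, -0.93 and 0.43 for mean CPM per nucleus. For KO-Sham over WT-Sham, WT-MI over WT-Sham and KO-MI over KO-Sham they were 0.67, -0.59 and -0.99 with totals without mitochondrial UMIs, 0.62, -0.55 and -0.90 without the 3 largest members, and 0.27, -0.41 and -0.40 as UMIs per nucleus (0.96 in CM4, KO-MI over WT-MI). They were 0.25, 0.69, -0.33 and -0.78 in the 4 comparisons of all nuclei with 4% to 8% mitochondrial UMIs, 0.24, 0.55, -0.45 and -0.76 in nuclei of 2000 to 4000 UMIs, and -0.54 and -0.90 for WT-MI over WT-Sham and KO-MI over KO-Sham without overlapping members. In CM4, KO-MI over KO-Sham turned from -0.11 to 0.37 as UMIs per nucleus.

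The count of members past 1.5-fold, with the share of all genes past it in brackets, moved from 30 to 0 (0.531%) as UMIs per nucleus and 12 (4.23%) in nuclei of 2000 to 4000 UMIs for KO-Sham over WT-Sham. For WT-MI over WT-Sham it moved from 20 to 13 (10.7%) with the size factor, 3 (13%) at 4% to 8% mitochondrial UMIs, 6 (8.05%) as UMIs per nucleus and 12 (11.9%) at 2000 to 4000 UMIs. As UMIs per nucleus it moved from 43 to 6 (1.95%) for KO-MI over KO-Sham and from 20 to 44 (35.3%) for KO-MI over WT-MI in CM4. UMIs per nucleus moved the median of all genes by -0.37, 0.16 and 0.54 in KO-Sham over WT-Sham, WT-MI over WT-Sham and KO-MI over KO-Sham, and by 0.41 in CM4. The share of Cox6a2 was 81.9% in WT-Sham and 83.9% in KO-Sham in nuclei with 4% to 8% mitochondrial UMIs and 85.6% in KO-Sham with thinned nuclei, and that of Cox8b was 32.1% in WT-Sham and 36.6% in KO-Sham with thinned nuclei. The cause of these moves was not tested.

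No paired analysis was possible because each group has 1 library. Comparisons with the library labelled KO-Sham cannot be given without it. Counting error bounds the values of single members in CM4, where 118 to 351 nuclei were summed. The CM4 subset with 4% to 8% mitochondrial UMIs was smaller, down to 9 nuclei in WT-Sham. Nothing in these data bounds the spread between hearts or litters.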
